A study of Homo sapiens with 3 samples.

Results

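The genes described here code for proteins of the extracellular matrix, and they were read in a leukaemia line and in its drug-resistant derivatives. They were taken by name from the probe-to-gene table of the array: every gene whose symbol is COL, a number, A and a number, together with the fibulins FBLN1, FBLN2, FBLN5, EFEMP1 and EFEMP2, the fibrillins FBN1 and FBN2, and SPARC, FN1, BGN, DCN and LUM, with antisense genes left out. The rule used no measured value. It found 55 genes of 19775 with a probe set of their own, and 151 probe sets of 54675. Of the 55 genes, 43 were collagens (112 probe sets) and 12 were other matrix genes (39 probe sets). COL17A1, a transmembrane collagen, had no probe set of its own.

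The tested cells were SupB15-MR (2 arrays), labelled as multiple drug resistant, and the cells they were set against were SupB15 (1 array), labelled as drug sensitive. SupB15 is an established line of B-cell precursor acute lymphoblastic leukaemia. SupB15-MR cells are the progeny of SupB15 cells that outlived mitoxantrone, an inhibitor of topoisomerase II, while held in medium conditioned by HS-5, a line of bone marrow stromal cells, and that were then kept without drug. All 3 cultures were growing in normal medium when RNA was taken, so that no stromal cells or conditioned medium were present by the labels. The second SupB15-MR sample is described as SupB15-MR5, and the labels give no clone name for the first. The study describes its SupB15-MR expression profiles as those of 2 clones, 1 of them named MR5 in its supplement. The spread between the 2 arrays would then include differences between clones. Each culture was read once on an Affymetrix HG-U133 Plus 2.0 array, and all levels below are RMA values on the log2 scale.

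Collagens are trimers of chains wound into a triple helix. Fibrillar collagens form the cables of connective tissue, collagen IV forms the sheet of basement membranes, and collagen VI forms beaded filaments around cells. Fibrillins and fibulins build and anchor microfibrils and elastic fibres, fibronectin is laid down as a fibril network that cells grip through integrins, and SPARC binds collagen and tunes how cells attach to it. In bone marrow these proteins come chiefly from stromal cells, osteoblasts and endothelium, and lymphoid cells are known more for adhering to them than for making them.

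Promoter sequence is printed for the gene with the largest fall, for SPARC, whose probe sets both fell, and for the gene with the largest rise. This choice was made after the values were seen. Each run is from RefSeq (GRCh38.p14), 250 bases before to 50 bases after the annotated start, read along the gene's strand, with every CG dinucleotide in capitals. COL6A3 is on chromosome 2 at chr2:237414115-237414414 (minus strand), SPARC on chromosome 5 at chr5:151686866-151687165 (minus strand) and FBN2 on chromosome 5 at chr5:128538196-128538495 (minus strand).
COL6A3: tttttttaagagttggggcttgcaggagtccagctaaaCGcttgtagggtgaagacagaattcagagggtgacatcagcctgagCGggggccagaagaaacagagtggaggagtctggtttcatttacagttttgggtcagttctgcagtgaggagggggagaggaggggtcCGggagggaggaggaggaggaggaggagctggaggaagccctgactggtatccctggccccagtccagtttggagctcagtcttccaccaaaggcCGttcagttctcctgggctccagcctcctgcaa
SPARC: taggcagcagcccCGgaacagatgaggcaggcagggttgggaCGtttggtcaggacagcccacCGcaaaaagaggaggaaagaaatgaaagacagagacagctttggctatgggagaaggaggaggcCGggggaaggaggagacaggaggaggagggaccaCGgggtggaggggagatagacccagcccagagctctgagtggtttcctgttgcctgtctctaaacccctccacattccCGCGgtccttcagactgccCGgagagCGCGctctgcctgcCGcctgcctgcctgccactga
FBN2: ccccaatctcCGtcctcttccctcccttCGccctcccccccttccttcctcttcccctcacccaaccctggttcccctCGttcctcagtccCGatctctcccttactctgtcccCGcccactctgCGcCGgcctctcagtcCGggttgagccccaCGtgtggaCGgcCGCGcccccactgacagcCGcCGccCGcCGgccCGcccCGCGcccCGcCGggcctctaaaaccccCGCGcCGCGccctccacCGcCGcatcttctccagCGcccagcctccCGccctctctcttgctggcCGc
The COL6A3 promoter held 4 CG and the SPARC promoter 11, against a median of 14 over all 35116 promoters in the table, and the FBN2 promoter held 30. Promoters of 40 of the 55 genes were in the table, with a median of 25 CG and 68.0% GC, against 58.67% GC over all promoters. Searched on both strands, the GC box GGGCGG was in 25 of the 40 (62.5%), against 44.95% of all promoters. The letters of the TATA box, TATAAA, were in 4 of the 40 (10.0%: COL13A1, COL6A2, COL6A6 and COL7A1), against 11.53% of all, and CCAAT was in 12 of the 40, against 34.61% of all. The TATAAA matches began at -236, -32, -29 and -124 from the annotated start, in that order, wherever in the window they lay. None of these letters was in the COL6A3 or SPARC window, while the FBN2 window held 4 GC boxes and 1 CCAAT. These matches are a description of the letters only. EFEMP1 was not in the table.

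Most of these genes gave low signal in all 3 cultures. The floor used here is the 20th percentile of all values on the arrays, 3.47. Of the 151 probe sets, 71 (47.0%) and 68 (45.0%) lay at or below it in SupB15-MR and 66 (43.7%) in SupB15, against 19.8%, 19.8% and 20.4% of all probe sets on the same arrays. In 10 genes every probe set lay there in all 3 arrays: the fibrillar collagens COL2A1, COL11A1 and COL24A1, the basement membrane chains COL4A5 and COL4A6, and COL6A5, COL8A1, COL15A1, COL21A1 and LUM, the corneal and tendon proteoglycan lumican. The filter on low values thus kept 92 probe sets of 45 genes, and it kept 46034 probe sets over the whole array. Only 5 genes had a probe set above 7 in a SupB15-MR array, and 3 had one in SupB15. In SupB15-MR these were FBN2, COL27A1, COL10A1, COL7A1 and COL5A1. In SupB15 they were COL6A3, EFEMP1 and SPARC.

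Several features of the arrays as a whole bear on every value. Array medians were 5.27 and 5.28 in SupB15-MR and 5.08 in SupB15, a shift of 0.19. Probe sets for 18S ribosomal RNA were higher in SupB15-MR by 6.57 to 7.84, and the gap between the 3′ and 5′ control probe sets of ACTB was 2.59 and 2.43 in SupB15-MR against 0.80 in SupB15. The control probe sets of GAPDH showed no such gap. The 3′ one read 12.07 and 12.17 in SupB15-MR against 13.50 in SupB15. The 5′ one read 12.16 and 12.28 in SupB15-MR against 13.40 in SupB15. The part of these differences in the results was not tested. Values were identical in both SupB15-MR arrays in 18289 of the 46034 kept probe sets (39.7%) and in 42 of the 92 kept matrix probe sets (45.7%). Without the filter these were 23368 of 54675 (42.7%) and 81 of 151 (53.6%). The single SupB15 array has no spread of its own, and limma's test took all its spread from the SupB15-MR arrays, with 1 residual degree of freedom. An exact permutation test of 1 array against 2 has 3 splits and cannot go below p = 0.333.

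Between SupB15-MR and SupB15 more of the matrix probe sets stayed close than moved apart. A probe set was called where limma gave a p adjusted by Benjamini-Hochberg no larger than 0.05 and the difference was at least 2-fold. Of the 92 kept probe sets, 6 were called higher in SupB15-MR (6.52%), against 13.1% of all kept probe sets, and 8 were called lower (8.7%), against 9.71% of all. Both directions together gave 14 of 92 (15.2%), against 22.8% of all. The 14 lay in 11 genes, 6 with a rise (FBN2, COL10A1, COL27A1, COL7A1, COL4A3 and COL1A1) and 5 with a fall (COL6A3, EFEMP1, SPARC, COL1A2 and COL5A3). In 2 of the 14, of EFEMP1 and COL5A3, both SupB15-MR values were the same, as in 2825 of the calls over all kept probe sets. Limma gave all such probe sets the same SE of 0.0006, so that any of them with a 2-fold difference from SupB15 was called. With no test, 11 probe sets (12%) were at least 2-fold higher in both SupB15-MR arrays, against 18.3% of all, and 10 (10.9%) were at least 2-fold lower in both, against 15% of all. The median difference was 0.01 on the log2 scale, against 0.00 over all kept probe sets, and 70 of the 92 lay within 1 of no difference. Over the 92 probe sets together these shares were no larger than those of the array as a whole, and the account below is of single genes. The 2 SupB15-MR arrays differed from each other by at most 0.88 on the log2 scale over the 92 probe sets.

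**Figure D1:**
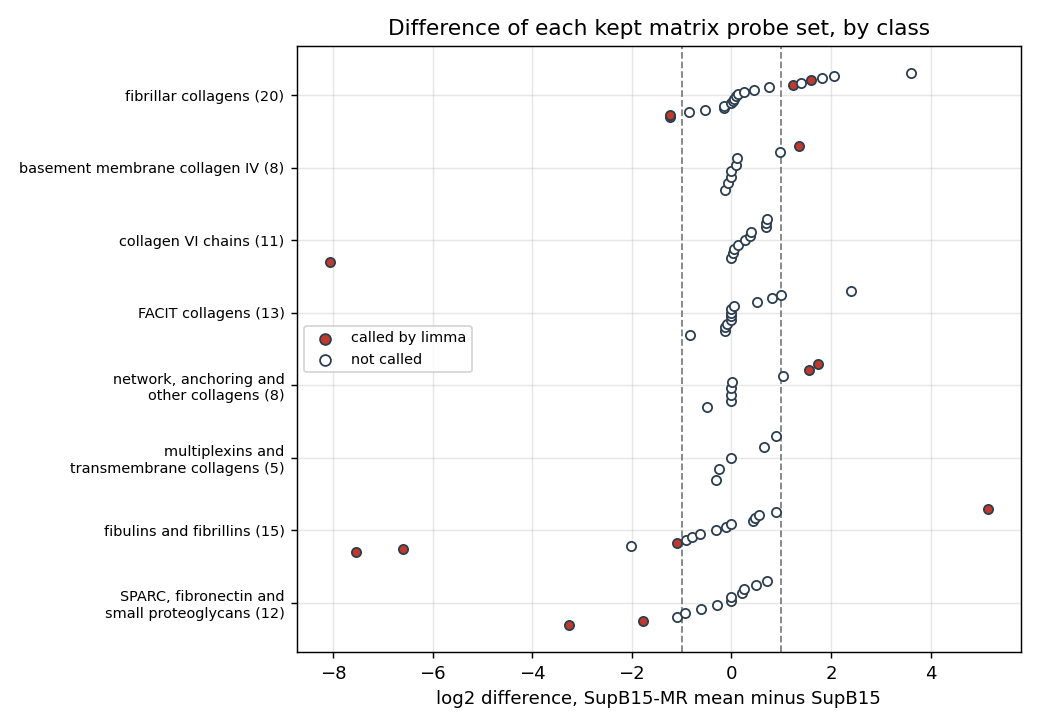
Log2 difference (x axis), SupB15-MR mean minus SupB15, of each of the 92 kept probe sets, grouped by class of matrix gene, with dashed lines at a 2-fold difference, filled points for probe sets called by limma and open points for the rest. Most points lie near 0 in every class, and the farthest are COL6A3 (-8.06) and EFEMP1 (-7.55 and -6.59) below 0 and FBN2 (5.15) and COL5A1 (3.61) above it.

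Collagen VI showed the largest fall. Its filaments are built from a trimer of the alpha 1, alpha 2 and alpha 3 chains, and the 3 genes did not move together. COL6A3 (chr2:237324018-237414164, minus strand) had a single probe set, with levels of 2.91 and 3.31 in SupB15-MR against 11.17 in SupB15. Both SupB15-MR values were below the floor of 3.47, while SupB15 was far above it. The log2 difference was -8.06 (SE 0.299; limma, Benjamini-Hochberg adjusted p = 0.0227), and with the SupB15-MR values raised to the floor SupB15-MR was at least 208-fold lower. This is the largest difference among the matrix genes.

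COL6A1, the alpha 1 chain, had 8 probe sets, of which 7 were kept, and none was called. Their log2 differences ran between 0.02 and 0.71. The most distant, 212938_at, read 5.66 and 5.66 in SupB15-MR against 4.95 in SupB15. All 8 were higher in SupB15-MR as deposited, and after each array was centred on its own median 5 of the 8 were higher and 3 lower. COL6A2, the alpha 2 chain, read 4.62 and 4.62 in SupB15-MR against 3.92 in SupB15 on 209156_s_at, a difference of 0.70, and 5.37 in all 3 arrays on 213290_at. COL6A6, a chain that can stand in for alpha 3, read 3.37 and 3.47 in SupB15-MR against 3.37 in SupB15, at the floor, and COL6A5 lay below the floor throughout. Thus in collagen VI the COL6A3 probe set fell to below the floor in SupB15-MR beside alpha 1 and alpha 2 signals that stayed within 2-fold.

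EFEMP1 and SPARC fell on every one of their probe sets. EFEMP1 (fibulin-3), a secreted glycoprotein of elastic tissues, lies at chr2:55865967-55923782. Its probe set 201842_s_at read 3.18 and 2.85 in SupB15-MR against 10.56 in SupB15, a log2 difference of -7.55 (SE 0.253; limma, adjusted p = 0.0204), or at least 137-fold lower with the values raised to the floor. On 201843_s_at it read 2.09 and 1.84 in SupB15-MR against 8.56 in SupB15, a difference of -6.59 (SE 0.192; limma, adjusted p = 0.0176), at least 34.0-fold lower. On both probe sets SupB15-MR was below the floor. The other, 228421_s_at, read 3.65 and 3.65 in SupB15-MR against 4.74 in SupB15, and its spread was 0 because both SupB15-MR values were the same.

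SPARC (osteonectin, chr5:151661096-151686915, minus strand) is a collagen-binding matricellular protein. On 200665_s_at it read 4.13 and 4.08 in SupB15-MR against 7.38 in SupB15, 9.64-fold lower (log2 difference -3.27, SE 0.0401; limma, adjusted p = 0.00684). On 212667_at it read 3.33 and 3.31 in SupB15-MR against 5.09 in SupB15, a difference of -1.77 (SE 0.0208; limma, adjusted p = 0.00652). There both SupB15-MR values were below the floor, and the fall is at least 3.07-fold with them raised to it. The SupB15-MR arrays differed from each other by far less than either did from SupB15, on both probe sets.

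**Figure D2:**
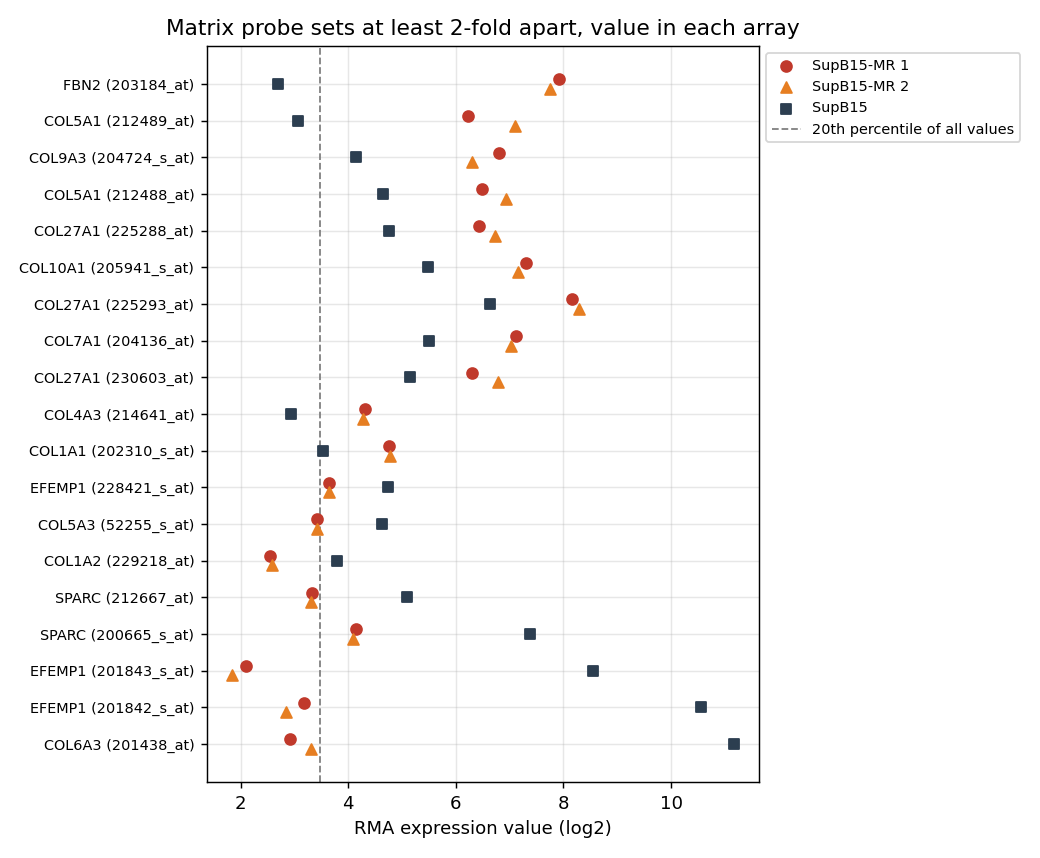
RMA level on the log2 scale (x axis) in each array for the 19 probe sets of the named genes that were at least 2-fold apart, with the SupB15-MR arrays and the SupB15 array as separate symbols and the floor of 3.47 as a dashed line. COL6A3 and EFEMP1 sit at 11.17 and 10.56 in SupB15 and near or below the floor in SupB15-MR, and FBN2 is the reverse, at 7.92 and 7.76 in SupB15-MR and 2.69 in SupB15.

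Cells of the stroma and vessels are the known makers of these proteins, and markers of such cells were read beside the fall. In this bulk RNA, fewer cells of a type and less RNA per cell cannot be told apart. Of 17 stromal or fibroblast markers that are not among the matrix genes, 13 and 13 had their best probe set above the floor in SupB15-MR and 14 in SupB15, and their summed linear level was 900.8 and 1060.7 in SupB15-MR against 2565.7 in SupB15. Of their 40 kept probe sets, 5 were called lower by limma (12.5%, against 9.71% of all), of MCAM, NT5E and THY1, and 0 were called higher, against 13.1% of all. With no test, 0 of the 40 were 2-fold higher on both SupB15-MR arrays, and 16 (40.0%) were 2-fold lower on both, against 15% of all. The 16 were of CALD1, NT5E, THY1, ENG, MCAM and TAGLN. The best probe set of ENG, the largest part of the stromal sum in SupB15, read 7.39 and 7.85 in SupB15-MR against 10.35 in SupB15. CALD1 read 4.01 and 3.50 in SupB15-MR against 8.39 in SupB15 on 212077_at. On its best probe set CALD1 read 6.09 and 6.17 in SupB15-MR against 5.68 in SupB15. CCN2 read 7.86 and 8.37 in SupB15-MR against 6.91 in SupB15 on its best probe set, and was not called. TAGLN read 6.36 and 6.36 in SupB15-MR against 5.67 in SupB15 on its best probe set. The best probe set of MCAM read 4.58 and 4.48 in SupB15-MR against 8.18 in SupB15. POSTN and TWIST1, which mark fibroblasts, were at or below the floor in all 3 arrays on their best probe sets, and PDGFRB read 6.31 and 6.22 in SupB15-MR against 6.33 in SupB15. On their best probe sets ACTA2, CCN1, PRRX1 and THBS1 had log2 differences of -0.22, 0.0, 0.0 and 0.20. PDGFRA differed by 0.97, LEPR by -0.69 and CXCL12 by -1.05, and none was called. PDGFRA was below the floor in SupB15, and LEPR and CXCL12 in SupB15-MR. The summed level of 5 endothelial markers was 149.2 and 131.7 in SupB15-MR against 1282.0 in SupB15, and that of 5 epithelial markers 147.6 and 148.8 in SupB15-MR against 110.8 in SupB15. PECAM1, an adhesion receptor of endothelium that leukaemic and other blood cells also carry, read 6.38 and 6.05 in SupB15-MR against 10.23 in SupB15 on its best probe set. Most of the endothelial sum in SupB15 came from PECAM1. Of the 9 kept endothelial probe sets, 6 were called lower (66.7%, against 9.71% of all), of PECAM1, TEK and VWF, and 0 higher. Most of the 6 were probe sets of PECAM1. The called probe sets of TEK and VWF had a spread of 0, since both SupB15-MR values were the same. VWF read 4.72 and 4.72 in SupB15-MR against 4.75 in SupB15 on its best probe set. TEK read 3.68 and 3.68 in SupB15-MR against 4.97 in SupB15, while CDH5, which defines endothelium, read 4.31 in all 3 arrays and KDR was below the floor in all on its best probe set. Of 12 B precursor markers with a probe set, 12 and 11 were above the floor in SupB15-MR and 12 in SupB15, and their summed level was 23890.4 and 22777.7 in SupB15-MR against 29834.1 in SupB15. Of their 26 kept probe sets, 5 were called higher (19.2%, against 13.1% of all) and 4 lower (15.4%, against 9.71% of all). With no test, 10 (38.5%, against 18.3% of all) were 2-fold higher on both SupB15-MR arrays. Another 6 (23.1%, against 15% of all) were 2-fold lower on both. CD79A stood at 10.27 and 10.27 in SupB15-MR and 10.34 in SupB15 on its best probe set. On its other probe set it read 9.39 and 9.53 in SupB15-MR against 10.48 in SupB15. MME was called higher on its best probe set, at 10.58 and 10.71 in SupB15-MR against 9.11 in SupB15. RAG1 read 12.16 and 11.92 in SupB15-MR against 10.01 in SupB15 on its best probe set, which was not called. On 1554994_at RAG1 was called higher, at 10.23 and 10.09 in SupB15-MR against 4.30 in SupB15. VPREB1, a surrogate light chain gene of early B cells, read 4.22 and 3.94 in SupB15-MR against 10.49 in SupB15. CD34, a marker of early precursors, read 3.82 and 3.46 in SupB15-MR against 10.02 in SupB15. The part of these markers in the fall of COL6A3, EFEMP1 and SPARC was not tested.

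FBN2 gave the largest rise. Fibrillin-2 forms microfibrils chiefly in developing tissue, and the gene lies at chr5:128257909-128538245 on the minus strand. Its probe set 203184_at read 7.92 and 7.76 in SupB15-MR against 2.69 in SupB15. SupB15 was below the floor, and both SupB15-MR values were well above it and close together. The log2 difference was 5.15 (SE 0.126; limma, adjusted p = 0.0147), or at least 20.7-fold higher with the SupB15 value raised to the floor. The other 2 FBN2 probe sets were below the floor in all 3 arrays, with differences of 0.00 and 0.15, so that the rise rests on 1 of 3 probe sets. FBN1, the fibrillin of mature tissue, was outside the rule for named genes and was added after its values were seen. It read 3.46 and 3.31 in SupB15-MR against 4.29 in SupB15 on 202766_s_at, a difference of -0.91 that was not called. Both SupB15-MR values were below the floor, and the fall is at least 1.77-fold with them raised to it. The difference in sign between the fibrillins thus rests on low FBN1 values and 1 FBN2 probe set.

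None of the remaining fibulins had a called probe set. FBLN1, a fibulin of basement membranes and elastic fibres, was also added after its values were seen. It read 4.0 and 4.41 in SupB15-MR against 6.23 in SupB15 on 207835_at, which was 2-fold lower in both arrays but not called (limma, adjusted p = 0.0931). Its other 4 probe sets had differences between -0.63 and 0.44. FBLN2 read 5.38 and 5.56 in SupB15-MR against 4.57 in SupB15, and FBLN5 4.14 and 4.14 in SupB15-MR against 3.58 in SupB15, both within 2-fold. EFEMP2 (fibulin-4), needed for elastic fibre assembly, differed by 0.00 and 0.48 on its kept probe sets. Over the 15 kept probe sets of fibulins and fibrillins, 1 was called higher and 3 lower (6.67% and 20%, against 13.1% and 9.71% of all), with a median difference of -0.32, and all 3 lower calls were of EFEMP1.

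Among the fibrillar collagens the largest differences were in COL5A1 and COL27A1. COL5A1 (chr9:134641803-134844843, plus strand) codes for the alpha 1 chain of collagen V, which starts and limits collagen I fibrils. On 212489_at it read 6.23 and 7.11 in SupB15-MR against 3.06 in SupB15. The SupB15 value was below the floor and both SupB15-MR values were above it, but they lay 0.88 apart, the widest gap between those arrays among the 92 kept matrix probe sets. The log2 difference of 3.61 (SE 0.662) was not called (limma, adjusted p = 0.112), and with the SupB15 value at the floor it was at least 9.20-fold. On 212488_at COL5A1 read 6.48 and 6.93 in SupB15-MR against 4.65 in SupB15, a difference of 2.05 (SE 0.339; limma, adjusted p = 0.100), and on 203325_s_at 4.49 and 5.15 in SupB15-MR against 4.05 in SupB15, a difference of 0.77. Both SupB15-MR arrays were above SupB15 on all 3 probe sets. The first 2 passed the threshold where the common spread was estimated only from probe sets that differ between the SupB15-MR arrays. They were not called after each array was centred on its median, nor by an ANOVA of the 3 arrays.

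COL27A1 (chr9:114154098-114312511, plus strand) is a fibrillar collagen of cartilage. Its probe set 225293_at rose, with 8.16 and 8.29 in SupB15-MR against 6.63 in SupB15 (log2 difference 1.59, SE 0.0963; limma, adjusted p = 0.0373). On 225288_at it read 6.43 and 6.72 in SupB15-MR against 4.75 in SupB15, a difference of 1.82 that was not called (limma, adjusted p = 0.0739). On 230603_at it read 6.29 and 6.78 in SupB15-MR against 5.14 in SupB15, a difference of 1.39 (limma, adjusted p = 0.161). The other 2 probe sets differed by 0.04 and 0.05, so that 3 of 5 were more than 2-fold higher in both SupB15-MR arrays and 1 was called.

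Collagen I, the main protein of bone, and fibronectin were the matrix proteins blotted in the stromal scaffolds of the study, and most of their probe sets were not called here. COL1A1, the alpha 1 chain, rose on 202310_s_at, with 4.75 and 4.78 in SupB15-MR against 3.52 in SupB15 (log2 difference 1.24, SE 0.0233; limma, adjusted p = 0.0110). Its other 4 probe sets differed by -0.15 to 0.52. COL1A2, the alpha 2 chain, was called lower on 229218_at, with 2.54 and 2.58 in SupB15-MR against 3.79 in SupB15 (log2 difference -1.23, SE 0.0300; limma, adjusted p = 0.0146). Since the SupB15-MR values lay below the floor, the fall is at least 1.25-fold with those values raised to it. Its other probe sets differed by 0.00 and 0.14. FN1 had 7 probe sets with differences between -0.62 and 0.72, and none was called. The highest of these differences was on 214701_s_at, at 4.90 and 5.0 in SupB15-MR against 4.23 in SupB15. After centring of each array on its median, 1 of the 7 was higher in SupB15-MR and 6 were lower.

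Of the other fibrillar chains, only COL5A3 had a called probe set. COL5A3, another chain of collagen V, read 3.41 and 3.41 in SupB15-MR against 4.63 in SupB15 on 52255_s_at, with a called log2 difference of -1.23. Its spread was 0 because the SupB15-MR values were the same, and since they lay below the floor the fall is at least 2.24-fold with those values raised to it. Its other probe set differed by -0.15. COL3A1, COL5A2 and COL11A2 had differences between -0.84 and 0.26 on their kept probe sets. Of the 20 kept probe sets of fibrillar collagens, 2 were called higher and 2 lower (10.0% each way, against 13.1% and 9.71% of all), and the median difference was 0.12.

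**Figure D3:**
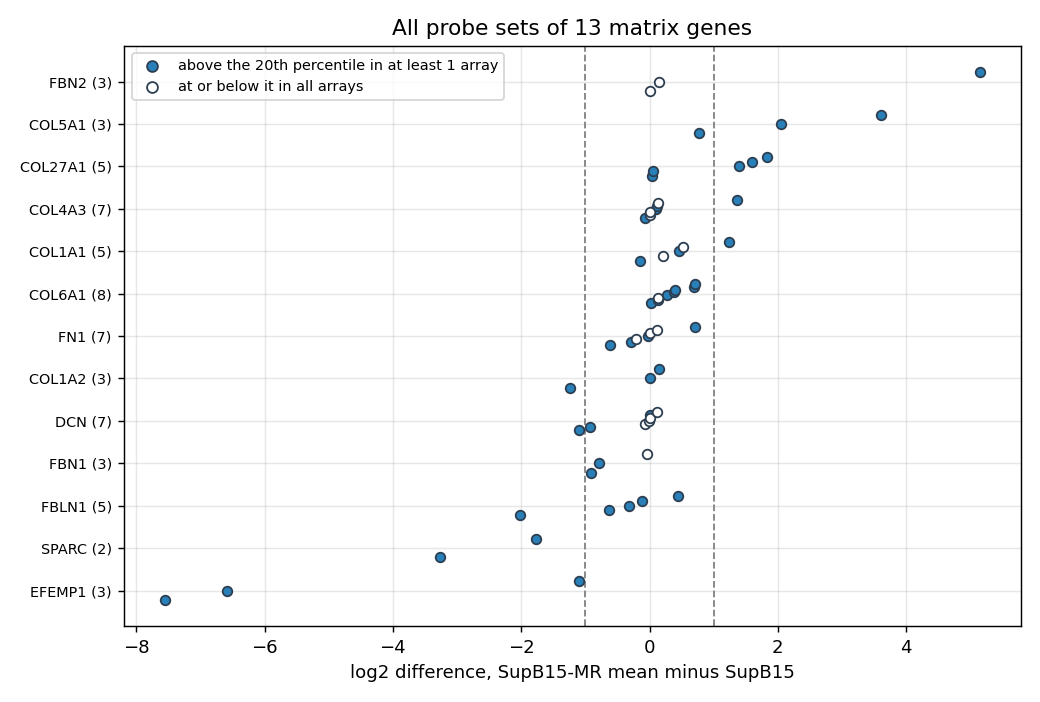
Log2 difference (x axis), SupB15-MR mean minus SupB15, of every probe set of 13 genes, 1 row per gene, with open points for probe sets at or below the floor in all arrays and dashed lines at a 2-fold difference. The EFEMP1 and SPARC probe sets all lie below 0, COL5A1 has all of its 3 probe sets above 0, and FBN2, COL1A1, COL4A3 and COL27A1 each mix probe sets near 0 with at least 1 more than 2-fold higher.

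Collagens of anchoring fibrils and of short-chain networks gave 2 further rises. COL7A1, the collagen that anchors skin to its basement membrane, read 7.11 and 7.03 in SupB15-MR against 5.50 in SupB15 on 204136_at (log2 difference 1.56, SE 0.0640; limma, adjusted p = 0.0251), while 217312_s_at read 4.02 and 4.02 in SupB15-MR against 4.50 in SupB15. The 2 probe sets of COL7A1 thus differed in sign. COL10A1, the collagen of hypertrophic cartilage, read 7.31 and 7.15 in SupB15-MR against 5.49 in SupB15 on 205941_s_at (log2 difference 1.74, SE 0.116; limma, adjusted p = 0.0410), and its other probe set was below the floor in all 3 arrays. COL26A1, added after its values were seen, read 6.87 and 6.41 in SupB15-MR against 5.59 in SupB15 on 233894_x_at and 5.61 in all 3 arrays on 229080_at. Neither was called. The 8 kept probe sets of this class had a median difference of 0.01, with COL8A2 and COL28A1 between 0.00 and 0.02.

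The FACIT collagens, which sit on the surface of fibrils, held no call among 13 kept probe sets, and their median difference was 0.00. COL9A3 (chr20:62816213-62841159), a chain of cartilage collagen IX, was the exception in size. It read 6.79 and 6.29 in SupB15-MR against 4.13 in SupB15 on 204724_s_at, 5.31-fold higher (log2 difference 2.41, SE 0.378; limma, adjusted p = 0.0956). Both SupB15-MR arrays were more than 2-fold above SupB15. The call was made after median centring and where the common spread came only from probe sets that differ between the SupB15-MR arrays. It was not made by the ANOVA. COL9A1 and COL9A2, its partner chains, had differences of -0.08 to 0.00, so that COL9A3 was the only collagen IX chain with a 2-fold difference. COL12A1, COL14A1, COL16A1, COL19A1, COL20A1 and COL22A1 had differences between -0.83 and 0.99 on their kept probe sets.

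Collagen IV held 1 call in 8 kept probe sets. COL4A3, a chain of the kidney glomerular basement membrane, read 4.31 and 4.27 in SupB15-MR against 2.93 in SupB15 on 214641_at (log2 difference 1.36, SE 0.0275; limma, adjusted p = 0.0119). With the SupB15 value raised to the floor the rise is at least 1.77-fold. The other 6 COL4A3 probe sets differed by -0.07 to 0.13. COL4A1 and COL4A2, the chains found in nearly every basement membrane, had differences of 0.00 on 211981_at and 0.00 and 0.97 on 211964_at and 211966_at. The genes for collagen IV lie in pairs that face away from each other, and the 300-base promoter windows of COL4A1 and COL4A2 shared 226 bases, those of COL4A3 and COL4A4 82 and those of COL4A5 and COL4A6 121. Among multiplexins and transmembrane collagens none of the 5 kept probe sets was called, with differences between -0.31 and 0.90, the highest of them in COL18A1, the source of endostatin.

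The small leucine-rich proteoglycans, which coat collagen fibrils, had no called probe set. DCN (decorin), added after its values were seen, read 3.96 and 4.11 in SupB15-MR against 5.13 in SupB15 on 211813_x_at, a difference of -1.10 (limma, adjusted p = 0.0624). The other kept DCN probe sets differed by -0.93 and 0.00, and 4 more lay at or below the floor in all 3 arrays. BGN (biglycan) had differences between 0.22 and 0.49 on its 3 kept probe sets. Set by kind, the 65 kept collagen probe sets had 5 calls higher and 3 lower (7.69% and 4.62%) with a median difference of 0.05. The 27 of the other matrix genes had 1 higher and 5 lower (3.70% and 18.5%) with a median of -0.28, and all 5 lower calls were of EFEMP1 and SPARC. Over all kept probe sets these shares were 13.1% higher and 9.71% lower.

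Genes that make, grip or accompany these proteins were read in lists drawn up by function. Of the genes for collagen synthesis, folding and crosslinking, 28 of 29 had a probe set, and 2 of their 53 kept probe sets were called higher and 6 lower (3.77% and 11.3%, against 13.1% and 9.71% of all), with a median difference of -0.20. The falls were in P4HB, a subunit of the enzyme that hydroxylates proline in collagen, on 2 probe sets, and in SERPINH1, the collagen chaperone, BMP1, which cleaves procollagen, CRTAP and P3H2. Both SupB15-MR values were the same, so that the spread was 0, in the calls of SERPINH1, BMP1, P3H2 and P4HB on 200656_s_at. BMP1 was called on 202701_at, at 5.08 and 5.08 in SupB15-MR against 7.12 in SupB15. On its best probe set BMP1 read 5.85 and 6.24 in SupB15-MR against 5.70 in SupB15. CRTAP disagreed between probe sets, at 6.47 and 6.61 in SupB15-MR against 8.15 in SupB15 on 1554464_a_at, which fell, and 9.02 and 9.26 in SupB15-MR against 7.61 in SupB15 on 226656_at, which was not called. P4HB read 8.86 and 8.94 in SupB15-MR against 10.03 in SupB15 on 1564494_s_at (limma, adjusted p = 0.0345). SERPINH1 read 6.70 and 6.70 in SupB15-MR against 7.73 in SupB15. The 2 rises were in COLGALT1, which adds galactose to collagen, and P4HA3. The other COLGALT1 probe set differed by -0.20, and the best probe set of P4HA3 by -0.43. With no test, 4 of the 53 (7.55%, against 18.3% of all) were 2-fold higher on both SupB15-MR arrays. Another 11 (20.8%, against 15% of all) were 2-fold lower on both. The lysyl oxidases, which crosslink collagen, had differences between -0.11 and 0.80 on their best probe sets.

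Among receptors, 2 of 22 kept probe sets were called higher and 1 lower (9.09% and 4.55%, against 13.1% and 9.71% of all). ITGB1, the shared beta chain of collagen-binding integrins, disagreed between probe sets. It read 6.56 and 6.52 in SupB15-MR against 3.62 in SupB15 on 216190_x_at (log2 difference 2.92; limma, adjusted p = 0.0065), but 9.54 and 9.23 in SupB15-MR against 11.03 in SupB15 on 211945_s_at (log2 difference -1.64; limma, adjusted p = 0.0864). ITGA2, the alpha chain of a collagen-binding integrin, read 2.62 and 2.62 in SupB15-MR against 6.16 in SupB15 on 227314_at. This was a called fall with both SupB15-MR values the same and below the floor, at least 6.46-fold with them raised to it. On 205032_at it read 5.82 and 5.96 in SupB15-MR against 6.43 in SupB15. LAIR1, an inhibitory collagen receptor of leukocytes, stood at 8.07 and 8.07 in SupB15-MR and 8.12 in SupB15.

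Partners of fibrillin in the elastic fibre moved in both directions. Of 18 kept probe sets, 2 were called higher and 2 lower (11.1% each way, against 13.1% and 9.71% of all), with a median of 0.43. LTBP1, which tethers latent TGF-beta to fibrillin microfibrils, rose on both called probe sets, with 7.70 and 7.75 in SupB15-MR against 5.03 in SupB15 on 202728_s_at (log2 difference 2.69; limma, adjusted p = 0.0080). MFAP2, a microfibril glycoprotein that binds fibrillin, read 5.37 and 5.53 in SupB15-MR against 8.16 in SupB15 (log2 difference -2.71; limma, adjusted p = 0.0289). EMILIN1, an elastic fibre glycoprotein, read 4.97 and 5.06 in SupB15-MR against 6.98 in SupB15 (log2 difference -1.96; limma, adjusted p = 0.0208). ELN, elastin itself, read 6.41 and 6.41 in SupB15-MR against 5.48 in SupB15, within 2-fold.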

How the data were processed

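The authors hybridised RNA amplified with the NuGEN Ovation system to Affymetrix arrays and summarised probes with RMA, and the deposited log2 values were used as they stand, for 54675 probe sets on 3 arrays. Every value column was used. Probe sets were named from the platform annotation: 41097 had 1 gene, 1801 several and 11777 none, and only those with 1 gene were named. Those whose 3 values were all 3.47 or less, the 20th percentile over the arrays, were left out. SupB15-MR (2 arrays) was compared with SupB15 (1 array) in limma 3.58.1 (R 4.3.3) over all 46034 kept probe sets, with Benjamini-Hochberg adjustment, and called at an adjusted p of at most 0.05 and at least 2-fold. Since 1 group has 1 array, p values measure only the spread between the SupB15-MR arrays. The fit was also run on simulated data, which checked the computed difference alone, and the calls made there are not reported. An ANOVA, the methods' test, was an alternative, since its groups of cells in conditioned medium were not analysed here. Named genes were those with a called probe set or a 4-fold difference in both SupB15-MR arrays, with FN1, COL1A1, COL1A2, COL6A1, COL6A2, COL6A3, EFEMP1 and SPARC whatever they showed, giving 16 genes. The members and lists were chosen with earlier results of these data known. A rule for printing promoters only where a class moved together was not kept. The precision is limited by the number of arrays, which have no read depth. Tables were handled with Python 3.11.15, pandas 2.3.3 and numpy 2.4.6.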

Additional observations from a re-analysis of the deposited data

How the results depend on the processing

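Of 22 probe sets of the named genes, no called one changed direction after centring or without 1 SupB15-MR array. Neither step could turn a called difference of at least 2-fold. The shift between array medians was 0.19, and the SupB15-MR arrays lay at most 0.88 apart. The variance prior does not enter the difference and cannot change its direction. COL6A2 on 213290_at was 0.0, and -0.19 after centring. No paired analysis was possible because SupB15 has 1 array, and without SupB15-MR replicate 1 or 2 no residual degree of freedom is left. Over all kept probe sets 10491 were called (6021 higher in SupB15-MR, 4470 lower), and 14314 (6552 higher, 7762 lower) after centring arrays on their medians. The ANOVA, run on the 27745 that differ between the SupB15-MR arrays (50 of the matrix ones), called 0, and 6778 at an unadjusted p with a 2-fold difference. Calls numbered 16476 where the variance prior came from differing probe sets, 3644 with 1 probe set per gene and 6774 without probe sets ending in _x_at or _s_at. Of the matrix probe sets, 6 were called higher and 8 lower, and by the ANOVA 0 and 0 (6 and 6 unadjusted). Calls higher were 12 with the prior from differing probe sets and 12 without probe sets identical in both SupB15-MR arrays. Calls lower were 4 under the stricter filter (50th percentile, 5.22), 14 after centring, 3 with 1 probe set per gene and 3 without _x_at and _s_at. Untested, 11 were 2-fold higher in both SupB15-MR arrays, and 6 with 1 probe set per gene. Untested, 10 were 2-fold lower in both, 5 under the stricter filter, 4 with 1 probe set per gene and 4 without _x_at and _s_at. The median difference of 0.01 was 0.0 with no filter, 0.46 under the stricter filter, -0.18 after centring, 0.0 without _x_at and _s_at and 0.0 without either SupB15-MR array. The cause of these shifts was not tested. Without SupB15-MR replicate 1 or 2, counts 2-fold higher were 12 to 13 and 2-fold lower 10 both times. By the ANOVA, 12 of the 18 named probe sets it could test lost their call. Probe sets of COL9A3 and COL27A1 gained one after centring (2), and 5, of COL5A1 too, with the prior from differing probe sets.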
